A study of Mus musculus with 3 samples.

Results

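Tendon spots of the E13.5 section were the spots in which 3 tendon genes took the largest share of the captured RNA. Tnmd (tenomodulin, a membrane protein of tendon cells), Scx (scleraxis, the transcription factor that marks tendon progenitors) and Thbs4 (thrombospondin 4, a matrix protein of tendons and muscle attachments) were summed in each spot. The sum was divided by the total of the spot in UMIs (unique molecular identifiers, tags that count captured RNA molecules). Of the 1365 spots of the section, 1360 held at least 1000 UMIs, and the top 6% of them, 82 spots, were taken. Muscle spots were taken in the same way by Myod1 and Myog, transcription factors of muscle commitment, and Chrna1, a subunit of the acetylcholine receptor of muscle. The 1 spot in both sets was left out, which gave 81 tendon spots, 81 muscle spots and 1197 other spots, out of 3942 spots in the 3 sections of the series.

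Tendons join muscle to the skeleton, and their fibroblasts lay down parallel bundles of type I collagen together with small proteoglycans and glycoproteins that govern how the fibrils assemble. In the trunk, tendon progenitors come from the syndetome, a strip of the somite between the muscle-forming myotome and the cartilage-forming sclerotome, where FGF signals from the myotome are known to switch on Scx. TGF-beta signals and the transcription factors Mkx and Egr1 are known to act on the tendon lineage later, as fibres attach to muscle at the myotendinous junction and to cartilage at the enthesis.

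The series holds 1 frozen section of mouse embryonic axial skeleton at each of the embryonic stages E11.5, E12.5 and E13.5 (E for days of embryonic life), profiled with Visium, which captures RNA on an array of barcoded spots. Sections were 10 µm thick and spots 55 µm across with 100 µm between centres, so a spot is a small region that can hold several cells of different types. The titles give each section's stage, beside numbers and, at E11.5, further text that no label explains, and strain, genotype, sex and the number of embryos were not given in the sources used here. The tissue is labelled as bone. Bglap, the osteocalcin gene of mature bone, lay at 0.548 CPM in tendon spots, which is 1 UMI, and 0.494 CPM in other spots at E13.5. Col2a1, the main collagen of cartilage, lay at 2899 CPM in other spots. Bglap is a single gene, and Alpl, Col10a1, Dlx5, Ibsp and Sp7, of perichondrium and bone, were at least 2-fold lower in tendon than in other spots.

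Levels are given in CPM, the UMIs of a gene per 1000000 UMIs of a set of spots, and single spots in UMIs per 10000 UMIs of the spot. Because each stage had 1 section and the spots were chosen by the RNA that is compared, no test was made and each difference is a description of this section. The 95% intervals, exact Poisson for a level and exact conditional binomial for a ratio, cover counting error only. In such sums, more cells of a type and more RNA of a gene per cell cannot be told apart. Tendon spots held 1823276 UMIs (median spot 22871, from 1111 to 44031), muscle spots 2618993 (median 30581) and other spots 24280720 (median 20212).

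The values that chose the spots were as follows. The tendon score reached 33.5 UMIs per 10000, its median was 11.6 in the spots taken and 1.18 in all spots, and 298 spots were at 0. The last spot inside the set had 7.88 UMIs per 10000 and the first outside 7.86, so the border falls within a continuous range. For the muscle score the last spot inside had 10.93 and the first outside 10.88. Tnmd lay at 518 CPM in tendon spots against 27.9 in muscle spots, Scx at 493 against 59.2 and Thbs4 at 305 against 53.1. All 3 genes were detected in 68 of the 81 tendon spots, 2 genes in 11 and 1 gene in 2. Most tendon spots were thus chosen by the 3 genes together. Tnmd had the most UMIs in 35 spots, Scx in 24 and Thbs4 in 11, and 11 spots had a tie. Of the tendon spots, 9 were also in the top 20% of the section by muscle score, and 6 of the muscle spots were in the top 20% by tendon score.

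**Figure D1:**
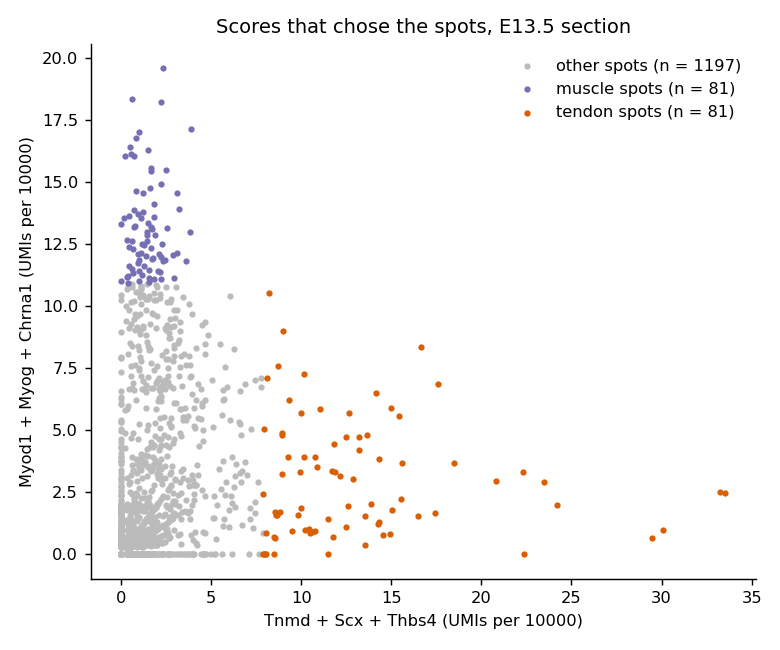
Each point is 1 spot of the E13.5 section, placed by its tendon score (x axis, Tnmd, Scx and Thbs4) and its muscle score (y axis, Myod1, Myog and Chrna1), both in UMIs per 10000. The 81 tendon spots start at 7.88 on the x axis and reach 33.5, most of them at low muscle scores, and the 81 muscle spots start at 10.93 on the y axis.

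Tendon markers that did not enter the choice followed it. The summed level of Mkx, Fmod, Kera, Egfl6, C1qtnf3, Col12a1, Col14a1 and Tnc was 2774 CPM in tendon spots, 699.5 in muscle spots and 1369 in other spots. By this sum 18 of 81 tendon spots and 0 of 81 muscle spots were in the section's top 10%, so the label held for the summed RNA but most of the spots highest in these markers were not among the tendon spots. The summed level of 8 unscored muscle markers (Myh3, Acta1, Mylpf, Tnnt3, Tnni1, Ttn, Ckm and Cdh15) was 6293 CPM in tendon spots, 15013 in muscle spots and 4451 in other spots. Of the 8, Myh3, Acta1, Mylpf, Tnnt3 and Ttn were higher in tendon than in other spots, with Myh3 at 1759 and 695 CPM, and Tnni1, Ckm and Cdh15 lower, with Ckm at 85.01 and 138 CPM. All 8 were below their level in muscle spots. The part of muscle RNA in the results below was not tested beyond the alternative that leaves mixed spots out.

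Against muscle spots, 578 of 9107 genes with at least 50 UMIs over both sets were at least 2-fold higher in tendon spots, which is 6.35% of the genes, and 407 were at least 2-fold lower, 4.47%. The 6 scoring genes were left out of these counts. The median log2 ratio of all genes was 0.13 toward tendon, and with ratios scaled so that this median was 0 the split became 430 higher and 492 lower. Against the other spots, 218 of 13440 genes were at least 2-fold higher in tendon spots, 1.62%, and 1082 at least 2-fold lower, 8.05%. Other spots hold far more UMIs than tendon spots, so a gene can reach the 50 UMIs with very few in tendon spots. The shares against other spots, above all that of lower genes, thus include genes with large counting error. Only 82 of 9107 genes, 0.900%, were at least 2-fold higher in tendon spots than in both of the other sets. These shares are the background against which the gene lists below are set.

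Among genes with at least 100 UMIs, the one with the highest smaller ratio of both comparisons was Cilp, a cartilage intermediate layer protein that is secreted into the matrix. Cilp lay at 120.1 CPM in tendon spots (219 UMIs), 9.55 in muscle spots (25 UMIs) and 11.7 in other spots (284 UMIs). Its level was 12.6-fold that of muscle spots (log2 3.65, 95% interval 3.05 to 4.31) and 10.3-fold that of other spots. Single tendon spots ranged from 0 to 5.95 UMIs per 10000 with a median of 0.784, while the highest muscle spot had 0.739, so the sets overlapped at the low end. A Cilp UMI was found in 64.2% of tendon spots, 23.5% of muscle spots and 14.7% of other spots. With every spot thinned to 5000 UMIs, which left out 4 tendon, 0 muscle and 105 other spots, the shares were 28.6%, 2.47% and 5.04%. The 82 spots highest in 12 neuron genes, called neuron-gene spots, had a median depth of 23360.5 UMIs. Their share was 9.76% before and 3.70% after thinning. A Col2a1 UMI was found in 100% of them, so they can hold RNA of other cells and set no background for stray RNA. The thinned share of muscle spots was below theirs and that of tendon spots above it.

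C1qtnf3, a secreted protein of the C1q and TNF family, came next by the same rule. It lay at 374 CPM in tendon spots, 51.9 in muscle spots and 51.2 in other spots, 7.19-fold and 7.30-fold. Single tendon spots held from 0 to 17.00 UMIs per 10000 with a median of 2.39, against a median of 0.391 and a highest value of 2.35 in muscle spots. Some tendon spots without this gene therefore stood beside spots that exceeded every muscle spot.

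Zfp185, a LIM domain protein bound to the actin cytoskeleton, lay at 115 CPM in tendon spots against 9.16 in muscle spots and 18.1 in other spots. Cpm, a carboxypeptidase anchored in the membrane, was 7.14-fold higher than in muscle spots and 5.46-fold higher than in other spots, and Lgr5, an R-spondin receptor known from stem cells, 6.59-fold and 4.77-fold. The secreted serine protease Htra1 lay at 254, 35.1 and 85.95 CPM in tendon, muscle and other spots, and the matrix protein Spon2 at 75.1, 7.64 and 25.4. Htra3, its relative, lay at 224, 44.3 and 65.9 CPM. Pcsk6, a convertase that cleaves growth factor precursors, lay at 144, 22.5 and 43.8 CPM, and Fibin, a secreted protein known from fin bud development, at 529, 143 and 185. Of the 12 genes with the largest ratio to muscle spots, 7 were also among the 15 with the highest smaller ratio to both sets. The exceptions include Prss35, a serine protease-like protein, which was 7.10-fold higher than in muscle spots but 1.23-fold that of other spots. The matrix protein Abi3bp, the cadherin Cdh3, the elastic fibre protein Ltbp2 and the calcineurin-responsive factor Nfatc1 were 7.47-, 7.03-, 6.86- and 6.56-fold higher than in muscle spots and 2.67-, 2.15-, 2.62- and 1.96-fold higher than in other spots.

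**Figure D2:**
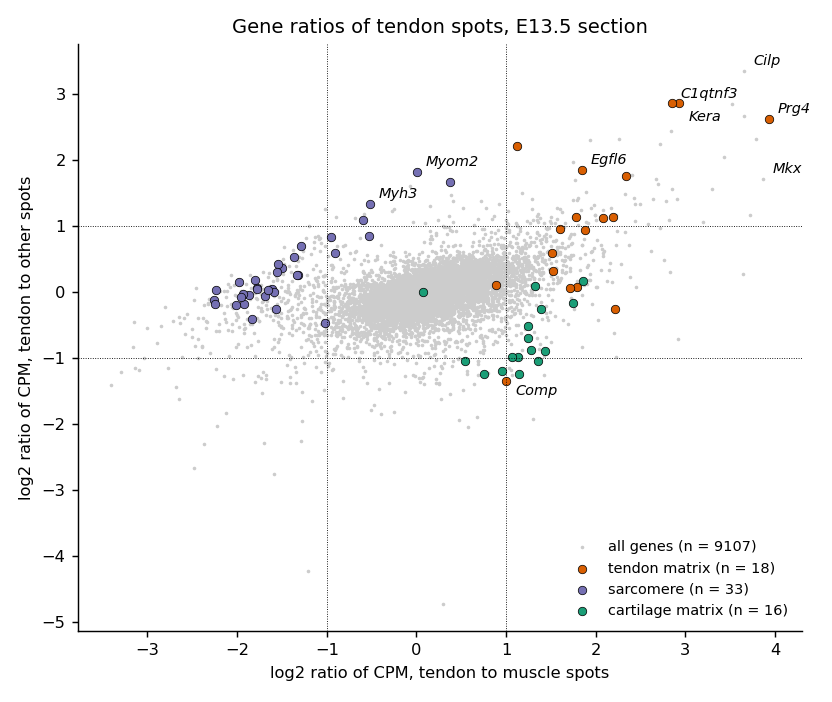
Each point is 1 gene with at least 50 UMIs over tendon and muscle spots of the E13.5 section, by its log2 ratio of CPM between tendon and muscle spots (x axis) and between tendon and other spots (y axis), and dotted lines mark 2-fold. Tendon matrix genes lie to the right, most sarcomere genes lie at the left near 0 on the y axis except Myh3, Myh7, Myom2 and Tcap above 1, and most cartilage genes lie at the right below 0.

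The letters in promoter windows of the named genes were read to see which of them hold the E-box. It is the site that MYOD1 and MYOG and also SCX bind with partners. Windows are the 250 bases before a start listed for a gene in RefSeq (GRCm38.p6), which need not be the outermost one. Both windows of Arhgap36, a window each of Capn3 and Myl2, and those of Sypl2 and Prss35 lie inside the gene. Those of C1qtnf3, Htra3, Ltbp2 and Zfp185 reach into it. Windows were searched on both strands for CANNTG, for its form CAGCTG, which is counted within CANNTG too, and for the MEF2 site. Windows were found for 7 of the 12 genes lower in tendon, with 10 windows, and for 12 of the 20 genes higher than in muscle or than in both sets, with 12 windows. Of the lower genes' windows 9 of 10 held CANNTG and 4 of 10 CAGCTG, and of the higher genes' windows 6 of 12 and 2 of 12. Over all 32851 windows the shares were 66.2% and 13%. In the sarcomere list, 12 of 32 windows (37.5%) held CAGCTG and 3 of 32 the MEF2 site, against 0.508% of all windows, and in the tendon matrix list 2 of 17 and 0 of 17. A match is a description of these letters only, and with 10 and 12 windows the shares are coarse.

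Shown are Cilp and Egfl6, higher in tendon spots than in both other sets, and Apobec2 and Mstn, of the 12 genes lowest against muscle spots, 5′ to 3′ on the gene's strand with each CANNTG in capitals, to let the E-boxes on both sides be compared. The windows lie at chr9:65264930-65265179 (plus strand), chrX:166585717-166585966 (minus strand), chr17:48432729-48432978 (minus strand) and chr1:53061390-53061639 (plus strand), and hold 3, 3, 3 and 4 E-boxes. Those of Cilp and Apobec2 hold 1 CAGCTG each, those of Egfl6 and Mstn 0.
Cilp: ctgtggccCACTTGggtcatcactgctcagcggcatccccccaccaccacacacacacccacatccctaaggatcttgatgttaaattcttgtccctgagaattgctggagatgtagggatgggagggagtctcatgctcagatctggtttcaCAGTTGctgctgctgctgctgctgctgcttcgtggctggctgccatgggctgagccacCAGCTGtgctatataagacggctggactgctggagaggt
Egfl6: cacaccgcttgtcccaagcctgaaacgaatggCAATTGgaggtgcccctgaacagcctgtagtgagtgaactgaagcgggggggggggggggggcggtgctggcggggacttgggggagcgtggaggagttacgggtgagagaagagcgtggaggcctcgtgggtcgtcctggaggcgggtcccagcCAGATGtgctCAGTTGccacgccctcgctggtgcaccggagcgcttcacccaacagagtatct
Apobec2: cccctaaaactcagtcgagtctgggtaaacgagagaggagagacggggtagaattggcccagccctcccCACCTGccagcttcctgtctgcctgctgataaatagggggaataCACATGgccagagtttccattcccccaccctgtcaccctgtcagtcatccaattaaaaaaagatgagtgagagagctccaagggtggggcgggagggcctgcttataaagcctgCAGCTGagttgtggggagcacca
Mstn: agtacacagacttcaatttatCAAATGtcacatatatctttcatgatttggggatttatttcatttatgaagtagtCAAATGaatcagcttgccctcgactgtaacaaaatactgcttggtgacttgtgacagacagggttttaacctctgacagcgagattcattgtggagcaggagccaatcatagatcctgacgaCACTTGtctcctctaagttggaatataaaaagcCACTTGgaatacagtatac
The windows shown are picked examples, and 66.2% of all windows held CANNTG, so E-boxes on both sides set neither side apart.

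The transcription factors and signals of the tendon lineage were mostly higher than in muscle. Of 12 genes, 9 were measured against muscle spots, 7 of them were at least 2-fold higher and 0 lower (median log2 1.31, against 0.13 over all genes). Mkx, the homeobox factor of tendon maturation, lay at 33.5 CPM in tendon spots (61 UMIs), 2.29 in muscle spots (6 UMIs) and 10.1 in other spots, a ratio to muscle of 14.6-fold (log2 3.87, 2.66 to 5.37). At least 1 Mkx UMI was found in 38.3% of tendon spots and 7.41% of muscle spots, so most tendon spots gave none at their depth, and after thinning the shares were 14.3% and 1.23%. Neuron-gene spots, which set no background for stray RNA, had 14.6% and 4.94%, so the share in muscle spots was below theirs.

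Egr1, an early growth response factor that responds to mechanical load in tendon, lay at 74.6, 14.1 and 21.8 CPM in tendon, muscle and other spots, and its relative Egr2 at 7.13, 0.382 and 1.94. The ETS factors that mediate FGF signalling were unlike each other. Etv4 was 4.80-fold higher than in muscle spots and 5.02-fold higher than in other spots, at 58.7 CPM, whereas Etv5 lay at 72.4, 72.9 and 63.3 CPM and changed sign against muscle in 4 of 12 alternatives. Tgfb3, Tgfbr2, Nfatc4 and Fgfr1, a ligand, a receptor subunit, a calcium-responsive factor and an FGF receptor, were at least 2-fold above muscle spots but 0.36 to 0.79 on the log2 scale above other spots.

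The tendon matrix genes formed the clearest group. Of 21 genes, 18 were measured against muscle spots, and 16 were at least 2-fold higher in tendon spots, 0 lower (median log2 1.82). Against the other spots 9 of 21 were at least 2-fold higher and 2 lower (median 0.95, against -0.05 over all genes). Summed over the list, the level was 7711 CPM in tendon spots, 2352 in muscle spots and 4520.1 in other spots. The direction of this list against muscle was kept in each of the 12 alternatives computed for it.

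Members high against both sets included Kera, a keratan sulphate proteoglycan, at 37.8, 4.96 and 5.19 CPM in tendon, muscle and other spots. Prg4, the lubricin of sliding surfaces, lay at 29.1, 1.91 and 4.70 CPM, from 53, 5 and 114 UMIs. Egfl6, a secreted protein with EGF repeats, lay at 209.5, 58.4 and 57.7 CPM, and its median spot had 1.42 UMIs per 10000 in tendon and 0.412 in muscle. Tnc, the glycoprotein tenascin C of tendon and loaded tissue, lay at 358, 104 and 163 CPM, and Aspn, a small leucine-rich proteoglycan, at 301, 65.7 and 137. Chodl, the membrane lectin chondrolectin, was above other spots in muscle spots too, at 157, 72.2 and 33.9 CPM.

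Other matrix genes of tendon were high against muscle but not against the rest of the section. Fmod (fibromodulin, a proteoglycan that governs collagen fibril growth) lay at 224 CPM in tendon spots, 48.5 in muscle spots and 266 in other spots, where single spots reached 55.00 UMIs per 10000 against 20.1 in tendon spots. Biglycan (Bgn) lay at 567, 173 and 542 CPM and decorin (Dcn) at 623, 217 and 499.8, so tendon and other spots were close for both proteoglycans. Comp, a thrombospondin of cartilage and tendon, lay at 35.1, 17.6 and 88.6 CPM and was 2.52-fold lower in tendon than in other spots. Angptl7 had 1 UMI in tendon spots, 3 in muscle spots and 118 in other spots.

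Type I collagen RNA was present in every tendon spot and every muscle spot, and higher in tendon spots. A Col1a1 UMI was also found in 99.6% of other spots. Col1a1 and Col1a2, the chains of type I collagen, lay at 3654 and 5223 CPM in tendon spots, 1035 and 1729 in muscle spots and 2539 and 3486 in other spots. Single tendon spots held Col1a1 from 7.98 to 124 UMIs per 10000 with a median of 31.7, while muscle spots had a median of 9.46 and a highest value of 22.7. Of 13 collagen genes, 8 were at least 2-fold higher than in muscle spots and 0 lower (median log2 1.35). Against other spots, only Col12a1, a collagen that links fibrils, passed 2-fold, at 974, 231 and 445 CPM in tendon, muscle and other spots.

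The type VI collagen genes, whose product surrounds muscle fibres as well as tendon cells, were near level between tendon and muscle. Col6a1 lay at 417 CPM in tendon and 401 in muscle spots, Col6a2 at 533 and 471, and Col6a3 at 877 and 832. Their log2 ratios to muscle lay between 0.06 and 0.18, against 1.82 for Col1a1. Scaling to the median gene turned Col6a1 and Col6a3 to slightly below muscle.

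Enzymes that modify, fold and cross-link collagen followed the collagens against muscle and not against the rest. Of 23 genes of this list, 20 were measured, 11 were at least 2-fold higher than in muscle spots and 1, Adamts14, lower (median log2 1.10). P4ha3, a subunit of prolyl 4-hydroxylase, lay at 64.2, 10.7 and 31.3 CPM in tendon, muscle and other spots and was the 1 member at least 2-fold higher than in other spots. Lox, the cross-linking lysyl oxidase, lay at 225, 61.9 and 209.5 CPM, and Serpinh1, the collagen chaperone, at 1385, 815 and 1403. Against other spots the median log2 ratio of the list was 0.09. Among 13 measured matrix-remodelling genes, 6 were at least 2-fold above muscle (Mmp2, Mmp11, Mmp14, Mmp16, Timp1 and Timp2) and 0 below, and 0 were 2-fold above other spots.

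**Figure D3:**
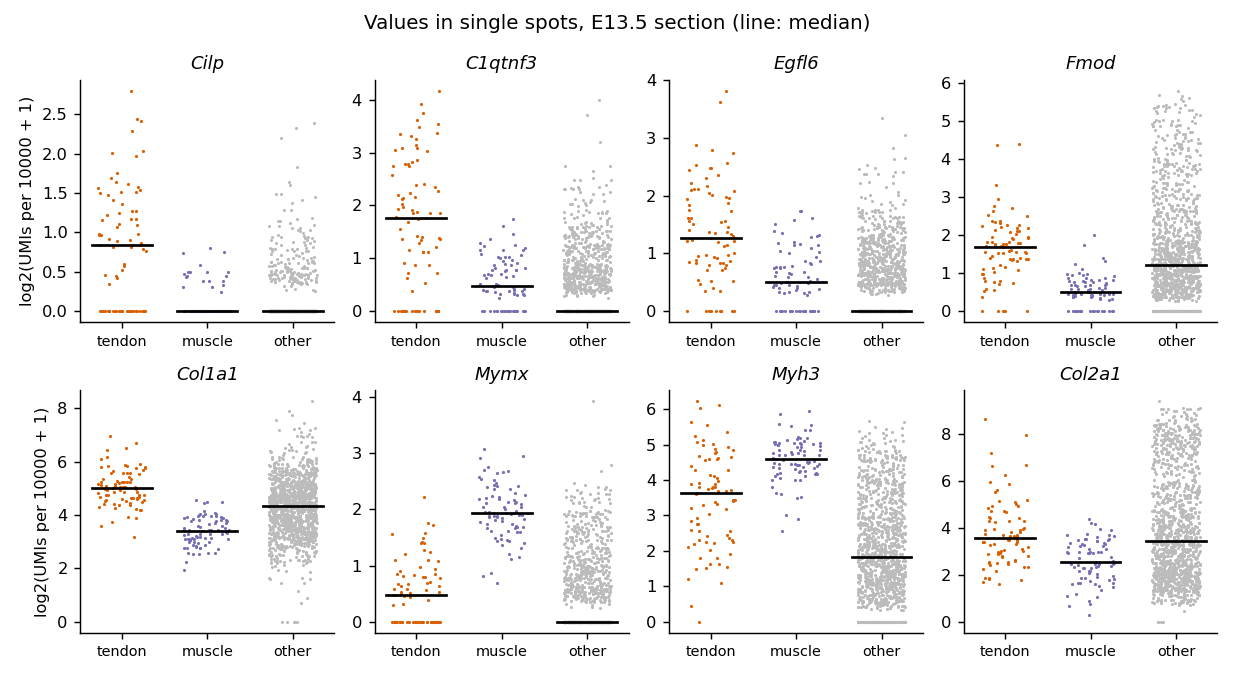
Each point is 1 spot of the E13.5 section, in log2(UMIs per 10000 + 1) on the y axis, for 8 genes in tendon, muscle and other spots on the x axis, and black lines are medians. Cilp, C1qtnf3 and Egfl6 have their highest median in tendon spots, Fmod and Col2a1 reach their highest single values in other spots, Mymx is low in most tendon spots, and Myh3 in tendon spots spreads over the range of the muscle spots.

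Signalling genes were also read along their pathways. In the TGF-beta list, 9 of 16 measured genes were at least 2-fold higher than in muscle spots and 0 lower (median log2 1.15). These were the ligand Tgfb3, the receptor Tgfbr2, Ltbp1 to Ltbp4 of the family named for latent TGF-beta binding, and the targets Tgfbi, Ccn1 and Ccn2. The receptor Tgfbr1 and the effectors Smad2 and Smad3 lay between -0.13 and 0.05 on the log2 scale. Ltbp2, an elastic fibre protein placed in this list by its family name, was the 1 member at least 2-fold above other spots. It lay at 94.3, 13.7 and 36.00 CPM in tendon, muscle and other spots.

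FGF pathway genes split by comparison. Against other spots, Etv4, Fgf6, Spry1 and Spry4 were at least 2-fold higher in tendon spots among 14 measured, and 0 were lower (median log2 0.65). Spry1 and Spry4, feedback inhibitors induced by FGF, lay at 110.2 and 27.97 CPM in tendon, 93.5 and 21.8 in muscle and 51.4 and 12.6 in other spots, so both tendon and muscle exceeded the rest. The ligand Fgf6, which muscle makes, lay at 7.13, 16.4 and 3.54 CPM from 13, 43 and 86 UMIs. The receptors differed, with Fgfr1 at 247 CPM in tendon and 112 in muscle spots, and Fgfr4, the receptor of muscle progenitors, at 21.9 and 74.5.

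Secreted Wnt antagonists were higher in tendon than in muscle. Wif1, which binds Wnt proteins, lay at 80.1, 16.04 and 28.5 CPM in tendon, muscle and other spots, and was the 1 gene of the Wnt list at least 2-fold above other spots. Of 8 genes measured against muscle, 6 were at least 2-fold higher and 0 lower, namely Dkk2, Dkk3, Frzb, Sfrp2, Wif1 and the ligand Wnt5a (median log2 1.78). Sfrp2, of the family of secreted frizzled-related proteins, lay at 371 CPM in tendon, 103 in muscle and 225 in other spots. In the BMP and GDF list the ligand Bmp5 lay at 43.3, 19.9 and 21.7 CPM, the antagonist Grem1 at 14.8, 1.53 and 3.21, and Mstn, the muscle growth inhibitor myostatin, at 8.23, 61.1 and 14.

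Factors of the somite and of connective tissue did not move as 1 group. Meox1 and Meox2, homeobox factors of the somite, lay at 176 and 117 CPM in tendon spots, 51.5 and 33.6 in muscle spots and 53.7 and 43.3 in other spots. Of 13 muscle connective tissue genes measured against muscle spots, Meox1, Meox2 and Ebf2 were at least 2-fold higher and 0 lower, while Tcf7l2 and Osr1, which mark the fibroblasts of muscle, lay at 48.3 and 59.8 CPM in tendon and 53.8 and 56.5 in muscle spots. Among mesenchymal transcription factors, Prrx1, Twist1, Twist2, Snai2, Foxc1 and Mkx were at least 2-fold higher than in muscle. Only Mkx was so against other spots, and Foxc1, Foxc2, Foxd1, Foxf1 and Foxf2 were at least 2-fold lower there. Six2, a homeobox factor known from tendons, had 16, 8 and 79 UMIs in tendon, muscle and other spots.

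**Figure D4:**
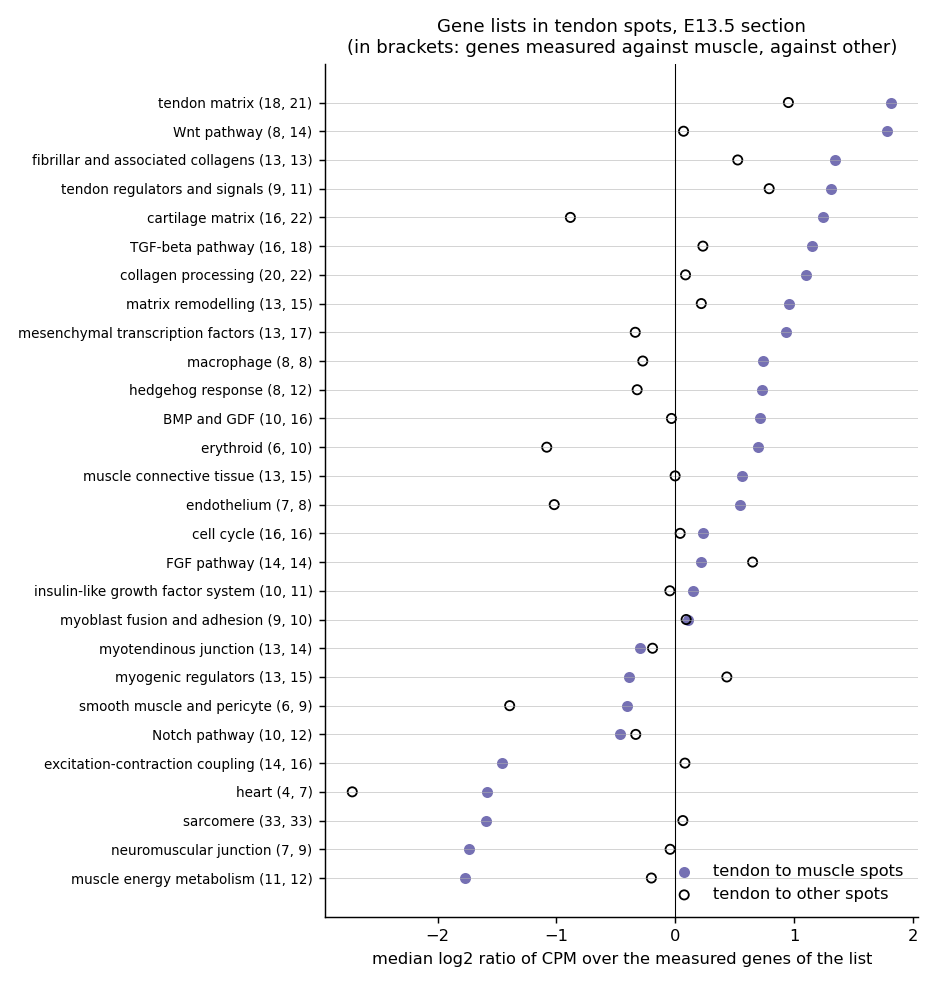
Gene lists with at least 4 genes measured against muscle spots (y axis) by the median log2 ratio of CPM over their measured genes (x axis), against muscle spots (filled) and against other spots (open), E13.5 section. Tendon matrix genes have the highest median against muscle, 1.82, sarcomere genes are near -1.59 against muscle and 0.06 against other spots, and cartilage matrix genes change side, from 1.24 to -0.88.

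Genes of the contractile apparatus were lower in tendon than in muscle spots but not absent. Of 33 measured sarcomere genes, 26 were at least 2-fold lower and 0 higher (median log2 -1.59), with summed levels of 14324 CPM in tendon, 39504 in muscle and 11982 in other spots. Acta1, skeletal alpha-actin, lay at 1410.1, 4133 and 1134 CPM in tendon, muscle and other spots, and Myh8, the perinatal myosin heavy chain, at 281, 1328 and 276.

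A subset of sarcomere genes did not follow. Myh3, the embryonic myosin heavy chain, lay at 1759 CPM in tendon, 2528 in muscle and 695 in other spots, only 1.44-fold below muscle (log2 -0.52, -0.58 to -0.46) and 2.53-fold above other spots. Myh7, the slow myosin heavy chain, lay at 376, 569.7 and 175 CPM. Myom2, an M-band protein that crosslinks myosin, lay at 154, 153 and 43.4 CPM, level between tendon and muscle (log2 0.01, -0.22 to 0.23). Tcap (telethonin), the titin cap of the Z-disc, lay at 127, 98.1 and 39.9 CPM, above both (log2 to muscle 0.37, 0.11 to 0.63). Myh3, Myh7, Myom2 and Tcap were the sarcomere genes at least 2-fold higher in tendon than in other spots. The sign of Myom2 against muscle changed in 5 of 12 alternatives, that of Tcap and Myh3 in 0.

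In single spots Myh3 ranged from 0 to 73.3 UMIs per 10000 in tendon spots with a median of 11.3, and muscle spots had a median of 23.3 and a highest value of 60.3. The highest tendon spot was thus above the highest muscle spot. For Acta1 the order was the opposite, with a tendon median of 10.1 and a highest value of 37.98, against 38.9 and 76.97 in muscle spots.

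Genes of myoblast fusion were further below muscle than these sarcomere genes. Mymx and Mymk (myomixer and myomaker, the membrane proteins that fuse myoblasts) lay at 60.9 and 79.5 CPM in tendon spots, 314 and 289 in muscle spots and 69.8 and 66.3 in other spots. Mymx was 5.16-fold below muscle, against 1.44-fold for Myh3. Its median was 0.392 UMIs per 10000 in tendon spots and 2.81 in muscle spots. Cdh15, the cadherin of muscle precursors, was at 61.98, 281 and 70.9 CPM. In the same list Boc, Neo1 and Itga9 were at least 2-fold higher in tendon than in muscle spots, and the median of the list (log2 0.11) changed sign with the choice of spots and with the scaling.

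Of the myogenic regulators, Pax7, Myf5, Myf6 and Msc were at least 2-fold lower than in muscle spots, 4 of 13 measured, and 0 were higher. Mef2c, a factor that other mesenchyme also uses, was at least 2-fold above other spots. It lay at 208, 159 and 75.1 CPM in tendon, muscle and other spots, with tendon the highest of the 3.

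Genes that serve excitation and energy supply were low. Of 14 excitation-contraction genes, 11 were at least 2-fold lower than in muscle spots and 0 higher, among them Atp2a1, the calcium pump of the sarcoplasmic reticulum, at 66.4 CPM in tendon and 331 in muscle. At the neuromuscular junction 6 of 7 were lower and 0 higher, and Chrnd, the delta subunit of the acetylcholine receptor, had 18 UMIs in tendon spots (9.87 CPM) against 207 in muscle spots (79.04 CPM). Agrn, agrin, which clusters these receptors and is also made outside muscle, was the exception at 132 and 83.6 CPM. In muscle energy metabolism 9 of 11 were lower, with Ckm, muscle creatine kinase, at 85.01 and 459 CPM.

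The 12 genes lowest in tendon against muscle were led by Arhgap36, a regulator of GLI and protein kinase A signalling, at 13.7 CPM in tendon, 145 in muscle and 36.2 in other spots. Capn3, the muscle protease calpain 3, had 7 UMIs in tendon spots against 99 in muscle spots, and Sypl2, a protein of the junction membranes, 9 against 116. Apobec2, a member of the cytidine deaminase family found in muscle, lay at 48.3, 273 and 70.8 CPM. Dhrs7c, Myoz1, Myot, Myl2, Colq, Mstn and Chrnd, of which Colq anchors acetylcholinesterase and Myoz1 and Myot sit at the Z-disc, were 5.43- to 8.01-fold lower than in muscle. Chchd10, a mitochondrial protein, was lower than in both sets, at 8.23, 45.8 and 51.9 CPM.

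At the myotendinous junction 1 of 13 measured genes was at least 2-fold higher than in muscle spots (Tgfbi). More were at least 2-fold lower, among them Itga7, Sgca and Tln2. Of all genes measured against muscle, 6.35% were at least 2-fold higher and 4.47% at least 2-fold lower. The members past 2-fold thus lay mostly on the lower side, though shares of 13 genes are coarse. Col22a1, a collagen known from this junction, lay at 60.3 CPM in tendon, 42.00 in muscle and 24.8 in other spots. It was the 1 member at least 2-fold above other spots (log2 1.28, 0.98 to 1.58), and its log2 ratio to muscle was 0.52 (0.13 to 0.92). A Col22a1 UMI was seen in 51.9% of tendon spots, 54.3% of muscle spots, 26.1% of other spots and 41.5% of neuron-gene spots, and after thinning in 23.4%, 18.5%, 8.33% and 13.6%. Ankrd1, a stretch-responsive protein, lay at 23.04, 28.3 and 27.1 CPM.

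Tendon spots differed among themselves by which scoring gene led, a division made after the values were seen. The 35 spots led by Tnmd had a summed tendon matrix level of 9608 CPM (95% interval 9395 to 9824), against 5334 (5147 to 5525) in the 24 led by Scx and 6936 in the 11 led by Thbs4. Decorin lay at 845, 282 and 698 CPM in the spots led by Tnmd, Scx and Thbs4, and Egfl6 at 278, 110.2 and 182.

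Sarcomere genes were highest in spots led by Scx. Their sum was 18330.2 CPM there, 15228 in spots led by Thbs4 and 12032 in spots led by Tnmd. The sum of the myoblast fusion and adhesion list was level, at 683, 678 and 677 CPM in the same order. Myh3 lay at 2759.8 CPM in spots led by Scx (2626 to 2898), 1345 in those led by Tnmd and 1372 in those led by Thbs4, so the first of these exceeded the 2528 CPM of muscle spots. In spots led by Scx, Tnmd and Thbs4, Myom2 lay at 262, 129 and 52.5 CPM and Tcap at 219, 98.9 and 56.5. Mymx lay at 70.6, 55.6 and 40.3 CPM with overlapping intervals, all below its 314 CPM in muscle spots. Cilp, at 157 and 111 CPM in spots led by Scx and Tnmd, had overlapping intervals. These intervals leave out the spread among spots, and differences between the groups of spots were not tested.

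The 9 tendon spots that were also high in muscle score held more muscle RNA than the other 72. Their sarcomere sum was 21125 CPM against 13609, and their neuromuscular junction sum 547 against 276. Without these 9 spots Myh3 lay at 1746 CPM, Myom2 at 156 and Tcap at 125, against 1759, 154 and 127 with them. Mymx lay at 60.9 CPM with them and 53.3 without them, and at 132 CPM in the 9 spots alone.

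Cartilage genes took a middle place in tendon spots. Of 16 cartilage matrix genes measured against muscle, 12 were at least 2-fold higher in tendon spots and 0 lower, and of 22 measured against other spots 0 were higher and 8 lower. Col2a1 lay at 1566 CPM in tendon, 579.6 in muscle and 2899 in other spots, and Sox9, the master factor of cartilage, at 43.9, 16.8 and 51.98. In single tendon spots Col2a1 had a median of 10.8 UMIs per 10000 and a highest value of 395, and 2 of the 81 spots were in the section's top 10% by 5 cartilage markers. Col11a1, a fibrillar collagen that cartilage shares with tendon, was level with other spots, at 491, 136 and 438 CPM. The part of cartilage RNA in the ratios to muscle spots was not tested.

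Genes of heart, neurons, lung and gut epithelium and liver were scarce in tendon spots, and in muscle spots too. The 10 genes lowest in tendon against other spots were Myl7, Myh6 and Tnni3 of the heart, Sftpc of the lung and the neuronal genes Stmn2, Rtn1, Tubb3, Prph, Stmn3 and Gng3. Myl7 lay at 25.8 CPM in tendon, 21.0 in muscle and 681 in other spots, and Stmn2 at 7.68, 9.93 and 194. All 12 neuron genes were at least 2-fold lower in tendon than in other spots. Nkx2-1 and Cdh1 had 0 UMIs in tendon spots, at a limit for 0 UMIs of 1.65 CPM. They had 0 and 3 UMIs in muscle spots and 358 and 157 in other spots. Blood vessel and macrophage genes were not scarce in the same way. Macrophage markers summed to 200.2 CPM in tendon, 107 in muscle and 228 in other spots, and endothelial markers to 104, 75.6 and 179. Smooth muscle markers, led by Acta2, which early skeletal muscle also makes, summed to 329.6, 956 and 498 CPM.

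Most cell cycle genes differed less than 2-fold between tendon and muscle spots, as most genes did. Of 16 cell cycle genes, 1 was at least 2-fold higher than in muscle (Ccnd2, cyclin D2, 256 and 86.3 CPM) and 1 lower (Cdkn1a, the p21 inhibitor that muscle cells raise on leaving the cycle, 36.2 and 152 CPM). Mki67 lay at 199 CPM in tendon, 149 in muscle and 193 in other spots. In the insulin-like growth factor system 0 of 10 measured genes differed 2-fold from muscle, which with so few genes does not set this list apart from all genes either. H19, the abundant imprinted RNA, lay at 4505, 4567 and 4501 CPM in tendon, muscle and other spots.

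The same rule was applied to the E12.5 and E11.5 sections, whose RNA had no part in choosing the E13.5 genes. It gave 56 tendon and 56 muscle spots at E12.5 and 73 of each at E11.5, with 5 and 21 spots in both sets left out. The scores were lower there. The last tendon spot inside had 3.94 UMIs per 10000 at E12.5 and 1.26 at E11.5, and at E11.5 the last muscle spot inside had 0.441, with 1404 spots at 0. The sections share 696 (E13.5 and E12.5), 704 (E13.5 and E11.5) and 434 (E12.5 and E11.5) spot barcodes, and 3 and 2 of the E13.5 tendon spots share the barcode of a tendon spot at E12.5 and at E11.5. Scx gave most of the tendon scoring UMIs in both of these sections. In tendon spots Tnmd, Scx and Thbs4 had 21, 615 and 82 UMIs at E12.5 and 3, 328 and 18 at E11.5, against 945, 899 and 557 at E13.5, and at E12.5 Tnmd had 21 UMIs in muscle spots too. The tendon spots of the earlier sections were thus chosen mainly by Scx, and the E13.5 spots led by Scx had a lower tendon matrix level than those led by Tnmd. The part of this in the ratios between sections was not tested, and stage and section cannot be told apart.

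At E12.5, 376 of the 578 genes higher in tendon at E13.5 were measured, and 333 of them were above muscle, where 61.9% of all genes measured in both sections were above. Of these 376, 65 were at least 2-fold above, where 1.85% of all genes were. Of the 407 lower genes, 232 were measured, 218 were below muscle, where 38.1% of all genes were, and 159 at least 2-fold below, where 2.91% were. At E11.5, 278 of 412 measured higher genes were above muscle, with 53.5% of all genes, and 23 were at least 2-fold above, with 0.638%. Of 176 lower genes 137 were below, with 46.5% of all genes, and 42 at least 2-fold below, with 1.01%. The share that kept its side of muscle was above that of all genes in both sections and both directions, and smaller at E11.5 than at E12.5.

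Lists showed the same order of stages. Sarcomere genes were at least 2-fold lower in 28 of 31 measured at E12.5 (median log2 -1.76) and in 13 of 22 at E11.5, with 1 higher. Against the same shares of all genes, tendon matrix genes were at least 2-fold higher in 6 of 13 measured at E12.5 (median 1.00) and in 3 of 9 at E11.5 (median 0.40). The lower medians of the tendon lists went with lower tendon scores in the spots taken. Summed tendon markers outside the score lay at 681 CPM in tendon and 409 in muscle spots at E12.5, and at 197 and 131 at E11.5.

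Matrix genes of tendon were at low levels before E13.5. Col12a1 lay at 974 CPM in tendon spots at E13.5, 235 at E12.5 and 73.9 at E11.5, with 231, 110.2 and 41.4 in muscle spots, so it exceeded muscle in all 3 sections. Tnc had log2 ratios to muscle of 1.78 at E13.5, 1.24 at E12.5 and 0.40 at E11.5, and Fmod of 2.21, 1.35 and 1.31 at the same stages. Mkx had 9 UMIs in tendon and 12 in muscle spots at E12.5, too few to give a direction, and Kera 3 and 4. Cilp had 9 and 3 UMIs at E12.5 and 0 and 1 at E11.5.

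C1qtnf3 did not keep its direction. It had 87 UMIs in tendon and 159 in muscle spots at E12.5, a log2 ratio of -0.71 (-1.10 to -0.32), and 0 and 27 UMIs at E11.5. The level in tendon spots was 66.5 CPM at E12.5 and 374 at E13.5, and that in muscle spots 109 and 51.9. Etv4 lay at 24.5 CPM in tendon and 32.2 in muscle spots at E12.5, a log2 ratio of -0.40 (-1.09 to 0.28) against 2.26 at E13.5. Meox1 was above muscle in both, with log2 ratios of 1.17 and 1.77. The difference between the sections was not tested for any gene.

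Myh3, Myom2 and Tcap had lower ratios to muscle in the E12.5 section than at E13.5. Myh3 lay at 481 CPM in tendon and 1292 in muscle spots at E12.5, a log2 ratio of -1.43 against -0.52 at E13.5. Myom2 and Tcap had log2 ratios of -0.67 (-1.35 to -0.02) and -0.87 (-1.42 to -0.34) at E12.5, against 0.01 and 0.37. Mymx had -2.14 and -2.37. Col22a1 was below muscle at E12.5 (log2 -1.11, -2.22 to -0.10, from 12 and 29 UMIs) and above it at E13.5.

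**Figure D5:**
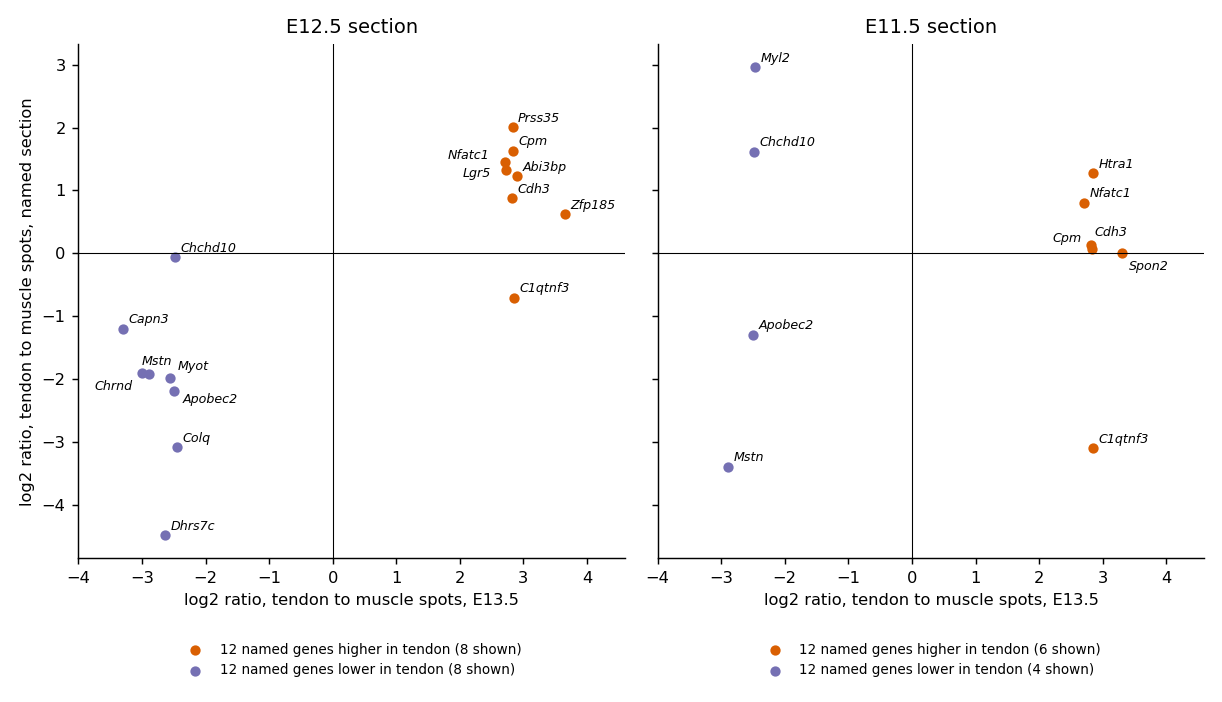
Log2 ratio of CPM between tendon and muscle spots in the E12.5 section (left, y axis) and the E11.5 section (right, y axis) against the same ratio at E13.5 (x axis), for those of the 24 genes with the largest ratios to muscle that had at least 20 UMIs over both sets in the section shown. At E12.5 the lower genes plotted stay below 0 and the higher genes plotted above 0 except C1qtnf3 at -0.71, while at E11.5 Myl2 and Chchd10 lie above 0. A gene with no UMI in 1 of the sets is placed at the bound that 3 UMIs give, as C1qtnf3 at E11.5.

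The E11.5 tendon spots held RNA of heart marker genes. Summed heart markers (Myh6, Myl7, Myl2 and Nppa) lay at 1094 CPM in tendon and 237 in muscle spots at E11.5, against 48.8 and 105 at E13.5, where 0 of 81 tendon spots were in the section's top 10% by these markers. Myl2, a ventricular and slow-muscle myosin light chain, had 535 UMIs in tendon and 72 in muscle spots at E11.5 and 17 and 135 at E13.5. The part of heart RNA in the E11.5 ratios was not tested.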

How the data were processed

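RNA of 3 sections, 1 per stage, was measured, and the deposited files hold raw UMI counts per gene and spot, which the authors made with Space Ranger (version 1.2.0 per the file headers). The submitters' processing notes also name STAR and the genome build mm10, and give no filters, so only the spots listed in the files were used and no doublet caller was run. The members and the gene lists were chosen with earlier results of these data known. Counts of a set of spots were summed and divided by the set's total UMIs. Genes needed 50 UMIs over the 2 sets compared, and a difference was counted at 2-fold, computed against 3 UMIs where a set had 0. No test was possible with 1 section per stage.

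Genes were named by a rule: the 12 with the largest ratio of tendon to muscle spots in each direction, the 15 with the highest smaller ratio to muscle and other spots, and the 10 lowest against other spots, each with at least 100 UMIs, besides the members of 35 lists (464 different genes, 1 of them not found under its name). Genes named by their ratio to muscle spots alone also needed a 95% interval that excluded 2-fold. The groups of spots by leading gene were added after values were seen, as description. Of 32285 gene IDs, 32158 were in the RefSeq gene table and 31436 of those had the same symbol. Spots of neuron genes were the top 6% by 12 neuron genes. The counting was tested first on simulated data with known changes, for tendon against muscle spots only and not against other spots. Alternatives were other UMI minimums, shares of spots, scores, scalings and weights, and leaving mixed spots out. Python 3.11.15, numpy 2.4.6, scipy 1.17.1, pandas 2.3.3 and matplotlib 3.10.9 were used. Spot positions and images were not used. Some list members are not reported here.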

Additional observations from a re-analysis of the deposited data

Results flagged for a closer look

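Some genes were at least 2-fold higher in tendon than in muscle spots in one section and at least 2-fold lower in another, with at least 50 UMIs in each. With 1 section per stage the difference between sections was not tested for any of them. All values are log2 ratios of tendon to muscle spots unless CPM is named.

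Between E13.5 and E12.5, Cxcl14, a chemokine, was at 1.65 at E13.5 and -1.66 at E12.5, from 25 and 88 UMIs in tendon and muscle spots there. Olfml2b, a secreted olfactomedin-like protein, was at 1.11 at E13.5, -1.10 at E12.5 and -1.04 at E11.5. Wt1, a zinc finger factor of mesothelium and kidney, was at -1.28 at E13.5 and 1.62 at E12.5, where tendon spots had 75.7 CPM and muscle spots 24.6.

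Between E13.5 and E11.5, striated-muscle genes that the heart also makes changed side. Myl2 was at -2.47 at E13.5 and 2.96 at E11.5, Myl3 at -2.01 and 2.0, and Csrp3, a muscle LIM protein, at -1.42 and 2.22. Smpx, a small muscle protein, was at -2.39 and 1.36, and Myh6, the atrial myosin heavy chain, at -1.21 and 1.19. Chchd10, a mitochondrial protein that was also found outside muscle spots at E13.5, was at -2.48 and 1.62. Summed heart markers stood at 1094 CPM in the E11.5 tendon spots and 237 in the E11.5 muscle spots, and their part in these values was not tested. Krt8, a keratin of simple epithelia, was at -1.27 and 1.36.

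Other genes were above muscle at E13.5 and below it at E11.5. Clstn2, a calsyntenin, was at 1.99 and -2.10, from 10 and 45 UMIs at E11.5. Hoxa9, a homeobox factor of axial position, was at 1.34 and -1.21, Hlx, another homeobox factor, at 1.22 and -1.02, and Sncg, a synuclein of sensory neurons, at 1.30 and -1.18.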

How the results depend on the processing

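No paired analysis was possible because each stage has 1 section and the result comes from no test. Of the 12 alternatives in the choice of spots, scoring genes, scaling and weights, each kept all 24 genes with the largest ratios to muscle at or past 2-fold (2.35 to 4.03 for the higher and -3.68 to -1.81 for the lower genes, on the log2 scale). These genes were named only if their interval already excluded 2-fold, and the alternatives shared most of their spots with the main sets. That they stayed past 2-fold was therefore nearly fixed in advance. The count of 82 genes higher than in both sets was 51 with the top 3% of spots, 50 with Tnmd left out of the score, 125 with a minimum of 20 UMIs per gene and 31 with 200. By the same 2 minimums the genes higher than in muscle spots numbered 987 and 194, and those higher than in other spots 355 and 109. With 200 UMIs per gene, 178 genes were lower than in muscle and 432 lower than in other spots, fewer genes being tested. The genes that kept their direction at E12.5 numbered 573 and 93 of the higher and 357 and 53 of the lower genes with 20 and 200 UMIs per gene, and at E11.5 480 and 77 and 273 and 29. As shares of those measured, the higher genes kept at E12.5 were 88.6% in the report, 81.5% and 96.9%. Gng3, 1 of the neuronal genes named as lowest in tendon against other spots, turned from 1.11 to -0.57 (log2, tendon to muscle) with the top 3% of spots. Neuronal genes were scarce in both sets, its UMIs there are not given, and the cause was not tested. Scaling by the median gene made 46.6% of the calls against muscle higher in tendon, against 58.7%. Of 396 list medians 0 turned from a 2-fold call to the other side and 150 moved, while the median of the fusion list, near 0, changed sign in 8 alternatives and that of the epidermis list, with 1 gene measured, in 1 (from -0.19 to 0.05 with the top 10% of spots). Depth limits Mkx, Prg4, Kera, Egr2 and Grem1, whose muscle values rest on few UMIs, and the tendon matrix genes before E13.5. Of the 81 tendon spots, 59 were still taken when Tnmd was left out, 68 without Scx and 72 without Thbs4.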

Other observations

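Further lists showed genes of neighbouring somite tissue in tendon spots. Pax1, a paired-box factor of the sclerotome that later forms discs and vertebrae, lay at 152 CPM in tendon spots, 73.7 in muscle spots and 135 in other spots (278, 193 and 3279 UMIs). Of the 3 sclerotome genes measured against muscle (Pax1, Meox1 and Fgfr2) all 3 were at least 2-fold higher in tendon spots, and of 7 measured against other spots 1 was higher (Meox1) and 1 lower (Foxc2). Hedgehog response genes were not high, with 0 of 12 at least 2-fold above other spots and 4 below (Foxf1, Foxf2, Hhip and Ptch1), while the co-receptors Boc and Gas1 were at least 2-fold above muscle spots. Gas1 lay at 349.9, 138 and 188 CPM in tendon, muscle and other spots.

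In the Notch list, the ligands Dll1 and Jag2 were at least 2-fold lower in tendon than in muscle spots among 10 genes measured, and 0 were higher. Dll1, a ligand made by differentiating muscle cells, lay at 3.84, 16.4 and 7.45 CPM. Schwann and neural crest genes were low, with 6 of 8 at least 2-fold below other spots. Erbb3, their neuregulin receptor, which muscle precursors also make, lay at 19.2, 51.9 and 25.1 CPM, highest in muscle spots. In the perichondrium and bone list 5 of 13 genes (Alpl, Col10a1, Dlx5, Ibsp and Sp7) were at least 2-fold below other spots and 1 above, Mef2c, which muscle shares. Sp7 switched sides in 1 alternative.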
